A study of Mus musculus with 22 samples.

Results

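The 106 genes described here were taken by symbol. They encode most subunits of the mitochondrial oxidative phosphorylation system and the assembly factors named after complex I. They are all the protein-coding genes whose symbols begin with Nduf, Uqcr, Atp5, Cox4 to Cox8, mt-Nd, mt-Co, mt-Cytb or mt-Atp, together with Sdha to Sdhd, among 37620 genes (20195 of them protein-coding) present in both deposited count tables. Of these members 93 are encoded in the nucleus and 13 in the mitochondrial genome. Complex I holds 43 members, its assembly factors 8, complex II 4, complex III 9, complex IV 23 and complex V 19. Atp5s was counted with complex V by its symbol. The complex III subunit Cyc1 has a symbol outside the rule and was followed in a separate list. The cells were PGCs (primordial germ cells), from which the gametes of the mouse descend. They were sorted from embryos and profiled by RNA sequencing. 10 groups of 2 libraries came from crosses of Tet1-heterozygous parents, both also carrying the GOF18ΔPE-EGFP reporter, a green fluorescent transgene active in germ cells. They were Tet1-WT or Tet1-KO PGCs at E10.5, with the sexes not separated, and at E12.5 and E14.5, with females and males apart. A further group held 2 wild-type E10.5 libraries from MF1 females crossed with GOF18ΔPE-EGFP males. For the Tet1 cross, RNA of 2 to 6 embryos alike in genotype, age and sex, or 1000 to 8000 cells, went into each library, and nothing in the labels ties a library to 1 animal. The p-values below therefore measure the spread between pools, and fewer cells of a type and less RNA per cell cannot be told apart in such bulk samples.

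Complexes I to IV pass electrons from NADH and succinate to oxygen. Complexes I, III and IV, but not complex II, pump protons out of the mitochondrial matrix, and complex V, the ATP synthase, uses the returning protons to make ATP. Most subunits are made from nuclear genes and imported, whereas the core of complexes I, III, IV and V is completed by proteins that mitochondria translate themselves, and complex II is wholly nuclear. PGCs colonise the genital ridge around E10.5 to E11.5, after which female germ cells enter meiosis and male germ cells stop dividing. NRF1, ETS-family factors such as GABP, YY1 and CREB are known activators of nuclear respiratory genes.

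The starts of 5 members are printed from the RefSeq promoter table (GRCm38.p6, 250 bases before to 50 bases after the start). They are written 5′ to 3′ on the gene's own strand. Ndufa1, Cox8a, Cox7b and Ndufaf4 are genes on which the results below turn. Uqcr11 is a member that carries both an NRF1 and an ETS word, whereas most members carry neither. Capitals mark exact matches to 4 words, searched on both strands: NRF1 as GCATGCGC, an ETS word CCGGAAGT, YY1 as AAGATGGCG and the cyclic AMP response element TGACGTCA. The lines are Ndufa1 (chrX:37191189-37191488, minus strand), Uqcr11 (chr10:80406772-80407071, minus strand), Cox8a (chr19:7217567-7217866, minus strand), Cox7b (chrX:106015450-106015749, plus strand) and Ndufaf4 (chr4:24897833-24898132, plus strand).
Ndufa1: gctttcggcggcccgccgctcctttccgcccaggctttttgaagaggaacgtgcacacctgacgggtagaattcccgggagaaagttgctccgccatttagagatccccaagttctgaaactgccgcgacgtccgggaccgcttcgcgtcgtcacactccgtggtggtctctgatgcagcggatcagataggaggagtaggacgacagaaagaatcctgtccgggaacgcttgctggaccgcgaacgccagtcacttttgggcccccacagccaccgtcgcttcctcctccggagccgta
Uqcr11: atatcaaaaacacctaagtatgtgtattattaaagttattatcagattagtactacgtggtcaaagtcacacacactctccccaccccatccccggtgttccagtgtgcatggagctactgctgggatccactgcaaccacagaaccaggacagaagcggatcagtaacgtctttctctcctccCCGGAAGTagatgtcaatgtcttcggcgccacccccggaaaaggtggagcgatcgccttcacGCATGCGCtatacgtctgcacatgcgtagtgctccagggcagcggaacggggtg
Cox8a: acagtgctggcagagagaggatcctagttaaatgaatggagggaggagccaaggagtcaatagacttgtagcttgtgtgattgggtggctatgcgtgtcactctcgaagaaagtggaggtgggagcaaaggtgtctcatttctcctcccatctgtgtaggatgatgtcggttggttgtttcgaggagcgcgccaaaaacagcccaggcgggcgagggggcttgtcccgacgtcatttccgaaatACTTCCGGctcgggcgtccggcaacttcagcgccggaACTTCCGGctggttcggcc
Cox7b: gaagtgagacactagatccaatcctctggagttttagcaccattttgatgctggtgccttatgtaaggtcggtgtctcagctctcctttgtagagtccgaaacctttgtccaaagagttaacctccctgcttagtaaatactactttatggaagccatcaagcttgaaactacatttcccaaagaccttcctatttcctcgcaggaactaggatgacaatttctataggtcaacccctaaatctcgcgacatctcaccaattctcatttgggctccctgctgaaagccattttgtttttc
Ndufaf4: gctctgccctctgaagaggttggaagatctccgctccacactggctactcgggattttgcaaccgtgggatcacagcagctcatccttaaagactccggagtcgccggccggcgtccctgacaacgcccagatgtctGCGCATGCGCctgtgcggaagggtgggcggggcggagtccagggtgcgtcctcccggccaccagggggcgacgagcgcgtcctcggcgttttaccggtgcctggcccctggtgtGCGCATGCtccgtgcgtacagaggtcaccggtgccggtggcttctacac

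The table held promoters for 74 of the 93 nuclear members, 5 of them with 2 starts, which gives 79 promoters. The NRF1 word stood in 12 of these (15.2%) and in 2.71% of all 32851 promoters of the same length. The ETS word stood in 5 (6.33%, against 3.89% of all), the YY1 word in 8 (10.1%, against 1.40%) and the response element in 4 (5.06%, against 1.79%). The median number of CpG dinucleotides was 19 per member promoter and 7 over all promoters. Each of the 4 words contains a CpG, so the shares over all promoters are not matched in CpG number. Its part in the higher shares among members was not tested. Ndufaf4 carried the NRF1 word in overlapping copies on both strands and once more near its start, and Cox8a carried the ETS word at 2 places. Ndufa1 and Cox7b carried none of the 4 words in this window, and Cox7b had 5 CpG dinucleotides against 29 in Ndufa1.

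The libraries of the Tet1 cross held 9616436 to 25899505 counts and those of the MF1 cross 59415040 and 66924911. Tet1-KO libraries of E12.5 and E14.5 carry no replicate numbers and are called the deeper or the shallower of their pair. Levels are given in CPM, the usual depth-scaled counts, computed here on TMM-scaled totals, and a gene is called where edgeR's quasi-likelihood test gave a Benjamini-Hochberg adjusted p under 0.05 over all genes tested, which were 17567 in the fit of the 20 libraries of the Tet1 cross. Tet1 itself was lower in both Tet1-KO libraries than in both Tet1-WT libraries of each E12.5 and E14.5 group, with fitted log2 differences of -0.85 to -1.73. Its adjusted p was 0.0303 for females and 0.0553 for males at E12.5, and 0.204 and 0.292 for the same sexes at E14.5, so 1 of the 4 groups passed the test. At E10.5 it stood at 134 and 76.8 CPM under the label Tet1-WT and at 44.5 and 102 CPM under the label Tet1-KO, so the groups overlapped there, and the E10.5 libraries are named below by their labels only. Markers of gonadal and mesonephric mesenchyme (18 genes) summed to 2225 and 2423 CPM in the E10.5 libraries labelled Tet1-WT and to 150 to 408 CPM in the 8 E14.5 libraries. Germ cell markers (16 genes) summed to 2465 and 1880 CPM in those same E10.5 libraries and to 5310 CPM or more in every other library of the Tet1 cross. Of the members, 103 could be tested. Cox8b and Cox6a2, muscle isoforms of complex IV, had at most 4 counts in any library, and mt-Nd4l, which shares its transcript with mt-Nd4, was at 0.12 CPM per kilobase on average.

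The 13 mitochondrially encoded genes took a larger share of the counts than the 93 nuclear genes in most libraries. They made up between 1.84% and 4.89% of all counts in the libraries of the Tet1 cross, with a median of 3.79%, and the nuclear members between 1.82% and 2.81%, with a median of 2.15%. The lowest mitochondrial share belonged to replicate 2 of E12.5 Tet1-WT females, at 1.84%, whereas replicate 1 of that group stood at 4.41%. In that library mt-Co2 was at 1146 CPM and in its partner at 4364 CPM, so the counts of calls that use E12.5 Tet1-WT females are given below with and without it.

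**Figure D1:**
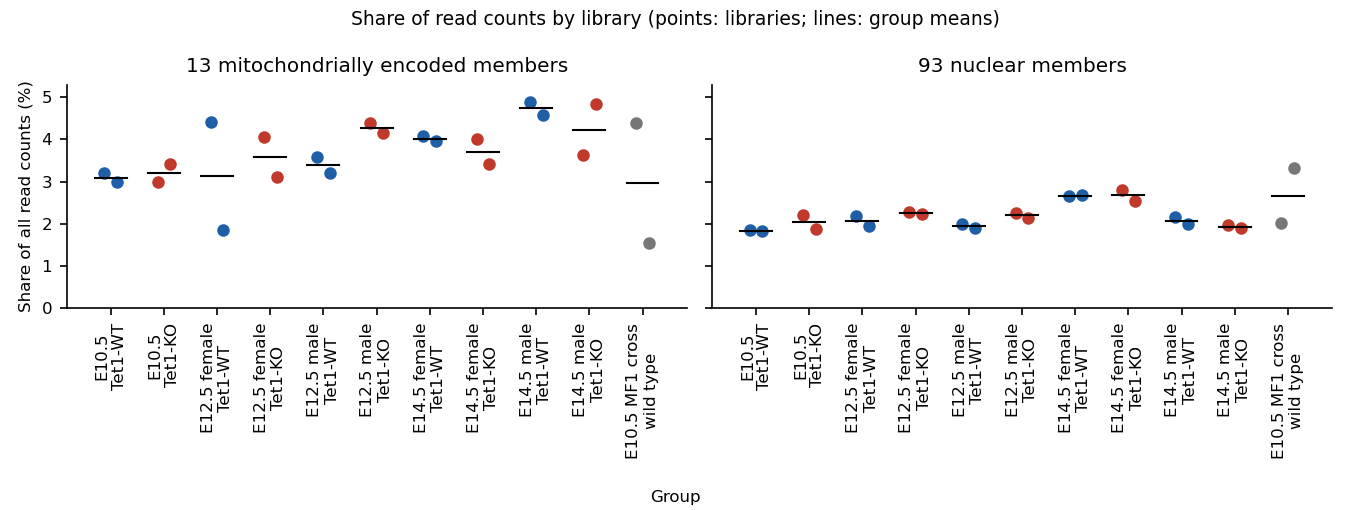
Share of all read counts (percent, vertical axis) taken by the 13 mitochondrially encoded members (left) and the 93 nuclear members (right) in each library, by group on the horizontal axis; points are libraries, lines are group means, blue is Tet1-WT, red Tet1-KO and grey the MF1 cross. The 2 E14.5 Tet1-WT female libraries sit at 2.65% and 2.69% for nuclear members, above both E14.5 Tet1-WT male libraries, and the mitochondrial share of E12.5 Tet1-WT females is split between 4.41% and 1.84%.

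In the E14.5 libraries the ratio of mitochondrially encoded to nuclear member counts was higher in males than in females. It was 1.53 and 1.47 in the Tet1-WT female libraries and 2.27 and 2.29 in the Tet1-WT males. In Tet1-KO it was 1.42 and 1.35 in females and 1.84 and 2.54 in males. All 4 male libraries were above all 4 female libraries, and the ratio received no test because it is a score over chosen members. At E10.5 the ratio lay between 1.36 and 1.82 in the 4 libraries of the Tet1 cross. At E12.5 it was 2.015 and 0.9497 in Tet1-WT females and 1.795 and 1.692 in Tet1-WT males. In Tet1-KO of that age it was 1.776 and 1.386 in females and 1.932 and 1.941 in males. The MF1 libraries were at 2.17 and 0.4654, so the ratio could differ widely between replicates of a group.

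Per kilobase of exon and averaged over the 10 groups, mt-Co3, a core subunit of cytochrome c oxidase, was the most abundant member at 13470 CPM per kilobase. It was followed by mt-Co2 at 5692, mt-Co1 at 5548, mt-Cytb at 4265 and mt-Nd1 at 3756 CPM per kilobase. The other mitochondrial genes of complexes I and V, leaving out mt-Nd4l at 0.12, lay between 691 (mt-Nd6) and 1478 (mt-Nd3) CPM per kilobase. By this measure every nuclear member lay below these levels. The highest nuclear members were Cox7c at 577, Uqcrb at 538, Cox4i1 at 506 and Uqcr11 at 461 CPM per kilobase. The exon length joins all annotated exons of a gene, and was 784 bases for mt-Co3, 1131 for Cox7c and 6443 for Atp5l. Alternative exons thereby lower the value of a gene. Whether the order holds for the length of a single transcript was not tested. The strand setting of the counting was not given in the sources used here. Because mt-Nd5 overlaps the oppositely directed mt-Nd6, and mt-Atp6 overlaps mt-Atp8 and mt-Co3, their separate levels are uncertain. In a later annotation 33 of the 106 members share exon sequence with another protein-coding gene, 25 of them with a gene on the opposite strand, among them Atp5f1 with Wdr77, Ndufs1 with Eef1b2, Uqcrc2 with Pdzd9 and Ndufb11 with Rbm10.

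Between E10.5 and E12.5 the called rises with the largest fold in Tet1-WT were those of genes with a restricted tissue pattern, among them isoforms of complex IV. In females 15 of the 103 members were called higher and 1 lower at E12.5, against 8.81% and 4.83% of all genes tested. The median log2 difference was 0.19 over the members and 0.03 over all genes. In males 6 were called higher and none lower, against 6.4% of all genes called higher and 3.05% lower. DESeq2 called 11 in males (9 higher and 2 lower). The shares of all genes here and below are those of the edgeR fit. They are not given for DESeq2, for the other settings or for fits with a library left out, so those counts have no background beside them. Both comparisons use the same E10.5 libraries. Germ cell markers summed to 2465 and 1880 CPM in these, to 8429 and 9032 CPM in E12.5 females and to 5880 and 7129 CPM in E12.5 males. Mesenchyme markers summed to 2225 and 2423 CPM at E10.5, to 1131 and 1449 CPM in the females and to 2385 and 1619 CPM in the males. Their part in these counts was not tested.

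Cox7a1, the isoform of a small complex IV subunit best known from heart and skeletal muscle, stood at 4.1 and 4.9 CPM in the E10.5 libraries labelled Tet1-WT. It stood at 42.8 and 49.4 CPM in E12.5 females and at 21.3 and 19.9 CPM in E12.5 males of that genotype. The 3 groups did not overlap, with females highest. However, edgeR's test between the sexes at E12.5 did not call Cox7a1 in either genotype. The log2 difference from E10.5 was 3.37 ± 0.30 (SE) in females (adjusted p = 3.57e-06, edgeR's quasi-likelihood test) and 2.20 ± 0.29 in males (adjusted p = 0.000201). In Tet1-KO, Cox7a1 went from 21.1 and 10.1 CPM in the E10.5 libraries of that label to 65.0 and 63.8 CPM in females and 39.4 and 38.8 CPM in males, log2 differences of 2.05 ± 0.28 and 1.33 ± 0.27 (adjusted p = 0.000284 and 0.00663).

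Cox6b2, the isoform of a complex IV subunit known from testis, was at 24.8 and 25.4 CPM in the E10.5 libraries labelled Tet1-WT and at 91.5 and 43.0 CPM in E12.5 females, a log2 rise of 1.42 ± 0.26 (adjusted p = 0.00209). In E12.5 males it was at 45.8 and 52.8 CPM, a log2 rise of 0.97 ± 0.26 (adjusted p = 0.0269). Cox8c, a testis isoform of subunit VIII, had 2 counts in the E10.5 libraries together and 44 in those of E12.5 females, a ratio of 22.1 with depth taken into account. Its 95% counting interval, from exact binomial limits that cover counting error only, was 5.77 to 188. In E12.5 males it had 59 counts, a ratio of 32.9 with an interval of 8.71 to 278. The Cox8c call was lost in 3 of 4 fits with a library left out in females and in all 4 in males. Ndufa4l2, a paralogue of the complex IV subunit Ndufa4 known as a target of hypoxia signalling, went from 0.4 and 1.0 CPM to 7.6 and 4.7 CPM in females (log2 difference 3.09 ± 0.72, adjusted p = 0.0094). Atp5g1, which encodes the c-ring subunit of the ATP synthase, was called higher in both sexes, from 245 and 256 CPM to 466 and 495 CPM in females and 402 and 424 CPM in males. The only called fall was that of Atp5d, the ATP synthase delta subunit, by 0.60 on the log2 scale in females (adjusted p = 0.0396), whose E12.5 replicates differed widely (105 ± 37.2 CPM, SD, n = 2). Without replicate 2 of E12.5 Tet1-WT females, 12 members were called higher and none lower; without replicate 1, 10 were called higher and 12 lower. Without replicate 1 or 2 of the E10.5 libraries the count was 8 or 10, all higher. The calls of Ndufa4l2 and Atp5d were lost in 2 and 3 of these 4 fits. In males the count was 2 to 4 without any 1 of the 4 libraries.

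The same step in Tet1-KO shares no library with the step in Tet1-WT. In Tet1-KO females 9 members were called higher at E12.5 and none lower, against 6.71% of all genes called higher and 3.66% lower, and in Tet1-KO males 5 were called higher and none lower, against 6.23% and 2.86%. For the males DESeq2 called 8 and the fit with no filter on low counts 9. Germ cell markers summed to 8063 and 5310 CPM in the E10.5 libraries labelled Tet1-KO, to 8727 and 8651 CPM in the E12.5 females and to 8302 and 8479 CPM in the males. Mesenchyme markers summed to 771 and 1371 CPM at E10.5 and to 332 to 566 CPM at E12.5, and the part of either was not tested. Of the 15 members called higher in Tet1-WT females all 15 had a fitted difference above 0 in Tet1-KO females and 6 were called there (40.0%). Of the 6 called higher in Tet1-WT males all 6 had one above 0 in Tet1-KO males and 2 were called (33.3%). The same shares over all genes were not counted. Without replicate 1 of the E10.5 libraries labelled Tet1-KO the count was 20 in females and 17 in males. It was 2 to 4 in females and 2 to 3 in males without any 1 of the other libraries.

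**Figure D2:**
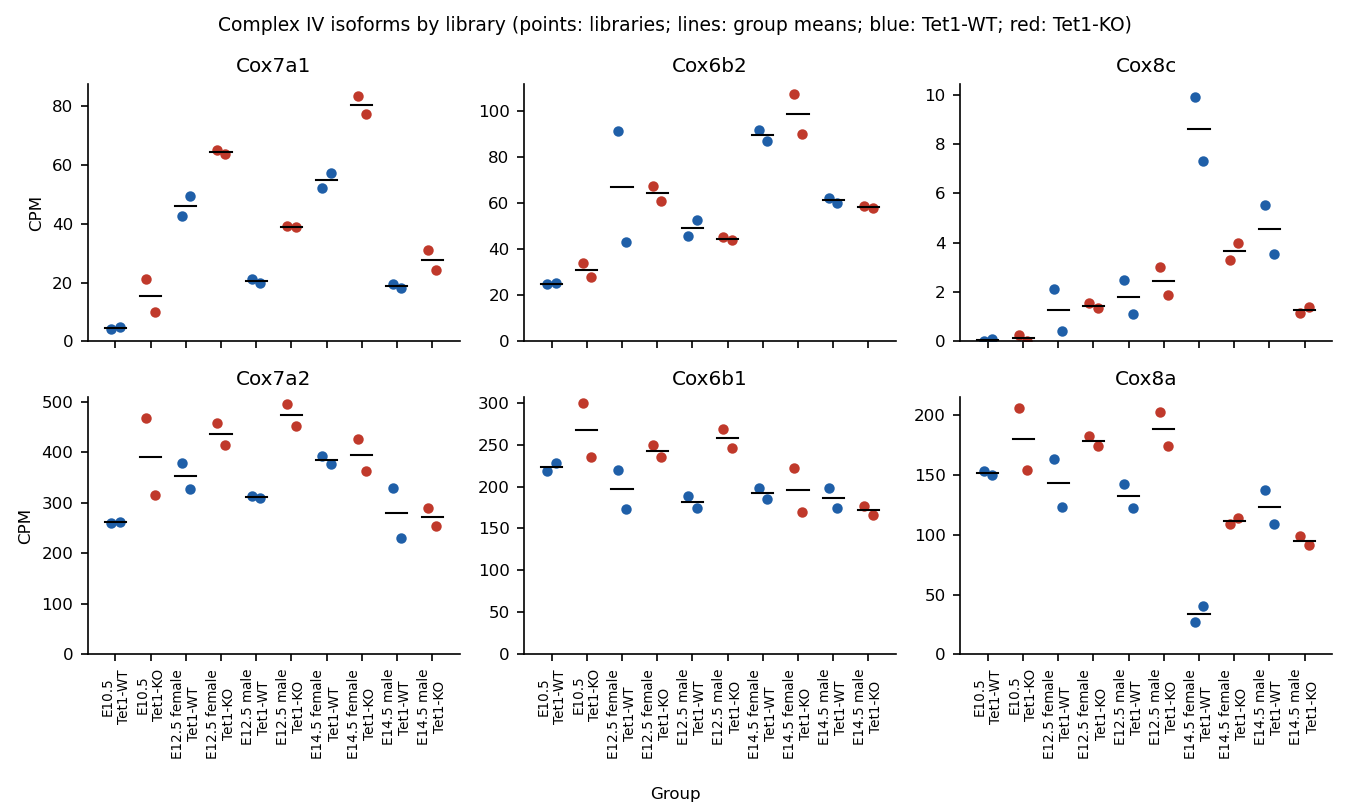
Levels in CPM (vertical axes, each starting at 0) of Cox7a1, Cox6b2 and Cox8c and of the widely expressed Cox7a2, Cox6b1 and Cox8a in each library, by group; points are libraries, lines group means, blue Tet1-WT and red Tet1-KO. Cox7a1 rises from under 22 CPM at E10.5 to 63.8 and 65.0 CPM in E12.5 Tet1-KO females, and Cox8a is lowest in the E14.5 Tet1-WT females, at 27.1 and 40.7 CPM.

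In Tet1-WT females the passage from E12.5 to E14.5 was marked by higher levels of many respiratory chain transcripts and much lower levels of a few. Of the 103 members 37 were called higher (35.9%) and 7 lower (6.80%), against 11.3% and 14% of all genes tested. The median log2 difference was 0.41 over the members and -0.07 over all genes. All called members were nuclear. Among complex I subunits 19 of 36 were called higher and none lower, with a median of 0.49. Complex II had 2 of 4 higher, complex III 3 of 8, complex IV 5 of 18 and complex V 6 of 17. Lower calls fell on complex IV (2), complex V (2) and the assembly factors of complex I (3 of 8, with 2 of 8 higher). The mesenchyme markers summed to 1131 and 1449 CPM at E12.5 and to 159 and 150 CPM at E14.5, germ cell markers to 8429 and 9032 CPM and then to 9032 and 8447 CPM, and their part in these counts was not tested.

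Among the called members the largest rise was that of Ndufa1, a small membrane-arm subunit needed to build complex I. It stood at 89.2 and 103 CPM in E12.5 females and at 417 and 357 CPM in E14.5 females, a 4.02-fold rise (log2 difference 2.01 ± 0.27, adjusted p = 5.64e-05, edgeR's quasi-likelihood test). Sdhc, a membrane anchor of succinate dehydrogenase, went from 107 and 59.5 CPM to 340 and 295 CPM (log2 difference 1.93 ± 0.26, adjusted p = 5.44e-05). In both genes each E14.5 library lay above each E12.5 library. Called genes described in this way, here and below, were picked by a test on the same libraries. The lack of overlap is therefore no separate support, and its share over all genes was not counted. Atp5f1, a subunit of the stalk that holds the ATP synthase together, went from 631 and 594 CPM to 1963 and 1871 CPM (log2 difference 1.65 ± 0.21, adjusted p = 4.56e-05). Ndufs1, the largest iron-sulphur subunit of the arm of complex I that oxidises NADH, went from 221 and 210 CPM to 624 and 560 CPM (log2 difference 1.46 ± 0.18, adjusted p = 3.15e-05). Its neighbour in that arm, Ndufv2, rose by 1.28 ± 0.18 and the complex III core protein Uqcrc2 by 1.13 ± 0.17. These 6 genes passed the test also when any 1 of the 4 libraries was left out. In complex II, Sdhb, the iron-sulphur subunit, rose from 265 and 324 CPM to 581 and 545 CPM, whereas Sdha, the flavoprotein to which it binds, was at 624 and 733 CPM and then at 615 and 676 CPM (log2 difference -0.07 ± 0.14, adjusted p = 0.768).

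The 7 lower members were led by Cox7b and Cox8a, small subunits of cytochrome c oxidase. Cox7b was at 215 and 249 CPM in E12.5 Tet1-WT females and at 38.1 and 66.0 CPM at E14.5, 4.47-fold lower (log2 difference -2.16 ± 0.21, adjusted p = 5.24e-06). Cox8a was at 164 and 123 CPM and then at 27.1 and 40.7 CPM, 4.25-fold lower (log2 difference -2.09 ± 0.22, adjusted p = 9.11e-06). In both genes every E14.5 library was below every E12.5 library. The complex I assembly factors Ndufaf4 and Ndufaf3 were lower by 1.50 ± 0.20 and 1.21 ± 0.32 on the log2 scale. Ndufaf4 went from 134 and 115 CPM to 36.4 and 52.0 CPM, and Ndufaf3 lost its call in 2 of 4 fits with a library left out. Of the 12 mitochondrially encoded members tested none was called, with a median log2 difference of 0.26. The reading of mt-Co1 turned on 1 library: it was at 9322 and 3704 CPM at E12.5 and at 11710 and 10750 CPM at E14.5, a difference of 0.79 ± 0.28 (adjusted p = 0.052).

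The counts of called members depended on single libraries. Without replicate 2 of E12.5 Tet1-WT females 22 members were called higher and 3 lower, and without replicate 1 of that group 49 and 6. Without E14.5 replicate 1 the counts were 25 and 3, and without replicate 2 they were 28 and 5. Each of these 4 fits left 1 library in a group. The shares of all genes called higher or lower in them are not given here, so these counts have no background.

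**Figure D3:**
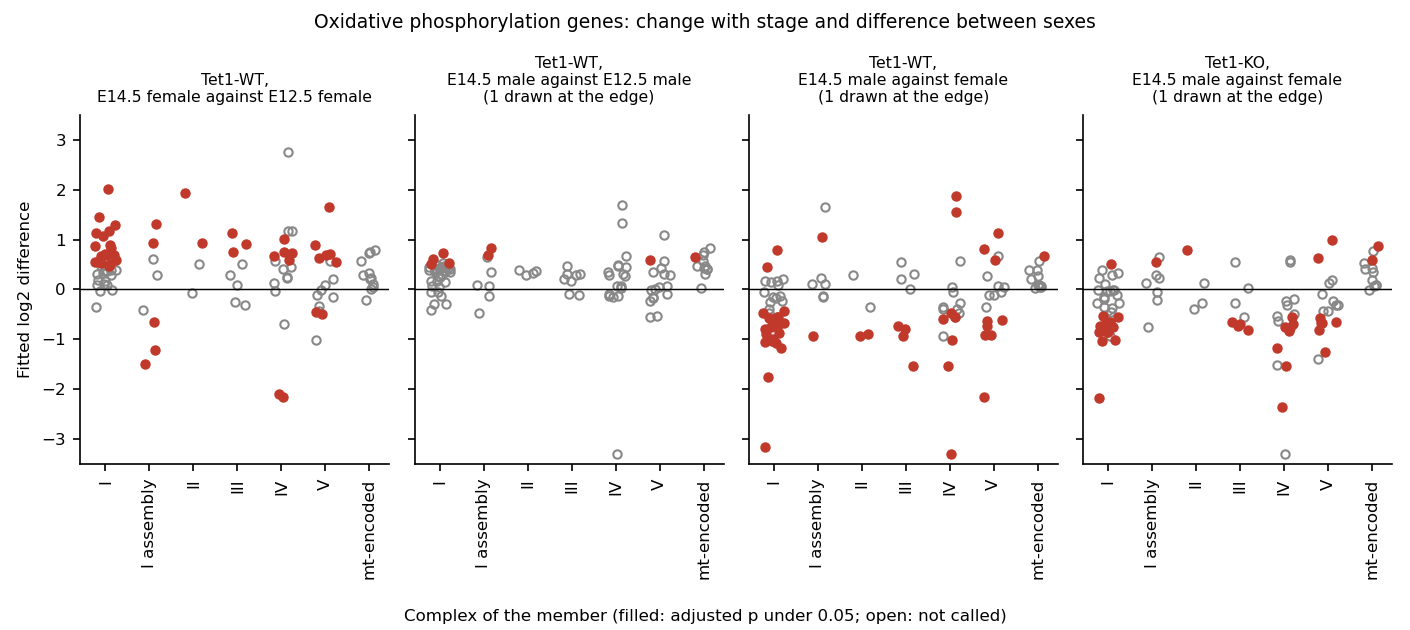
Fitted log2 differences (vertical axis) of the 103 tested members, grouped by complex on the horizontal axis with the mitochondrially encoded members last; each point is a gene, filled red where called and open where not. From left to right the panels show E14.5 against E12.5 in Tet1-WT females and males, then males against females at E14.5 in Tet1-WT and in Tet1-KO. Red points lie mainly above 0 in the left panel (37 of 44) and mainly below 0 in the panels of the sexes (40 of 49 and 33 of 40).

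In Tet1-KO females the same step gave 4 higher and 4 lower members, against 4.02% and 7.02% of all genes, and these libraries share none with the Tet1-WT comparison. DESeq2 called 16 members here (12 higher and 4 lower). Of the 37 genes called higher in Tet1-WT females 35 had a fitted difference above 0 in Tet1-KO females and 4 were called there (10.8%), with medians of 0.75 and 0.30. The 4 were Ndufa1, Atp5f1, Ndufv2 and Ndufa2. Ndufa1 went from 83.3 and 79.6 CPM to 206 and 150 CPM (log2 difference 1.13 ± 0.26, adjusted p = 0.0114). Of the 7 lower genes all had a fitted difference below 0 in Tet1-KO and 4 were called, Ndufaf3, Ndufaf4, Atp5a1 and Cox8a. Cox8a had a log2 difference of -0.68 ± 0.21 there (adjusted p = 0.0465), and Cox7b had a difference of -0.62 ± 0.20 (adjusted p = 0.0545). Leaving out 1 library gave between 1 and 7 called members in Tet1-KO females. With the deeper E14.5 library left out it was 7, and with the shallower one left out it was 2. With the deeper E12.5 library left out it was 2, and with the shallower one left out it was 1. Mesenchyme markers summed to 332 and 362 CPM at E12.5 and to 195 and 251 CPM at E14.5 in Tet1-KO females, and their part was not tested. Whether the step differed between the genotypes was not tested, and the overlap of calls over all genes was not counted.

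In Tet1-WT males 8 members were called higher at E14.5 than at E12.5 and none lower, against 4.92% and 7.75% of all genes. DESeq2 called 17 (15 higher and 2 lower). Mesenchyme markers summed to 2385 and 1619 CPM at E12.5 and to 322 and 345 CPM at E14.5, and germ cell markers to 5880 and 7129 CPM and then to 12660 and 13190 CPM. Their part in these counts was not tested. The median was 0.33 over the members and 0.00 over all genes. The largest calls were Ndufaf1, an assembly factor of complex I, by 0.83 ± 0.22, Ndufa7, an accessory subunit, by 0.73 ± 0.16, Ndufaf7 by 0.70 ± 0.19 and mt-Atp6, the proton channel subunit of the ATP synthase, by 0.64 ± 0.19. mt-Atp6 was at 538 and 474 CPM at E12.5 and at 794 and 786 CPM at E14.5 (adjusted p = 0.0382). Every fit that left out 1 library gave fewer calls, 1 without any of 3 libraries and 4 (2 of them lower) without E14.5 replicate 1. Cox7b was at 151 and 141 CPM and then at 154 and 152 CPM in males, and Ndufa1 was at 60.4 and 45.4 CPM and then at 54.4 and 32.7 CPM. In Tet1-KO males the same step gave 6 higher and 12 lower members, against 5.5% and 4.87% of all genes. DESeq2 called 28 (7 higher and 21 lower). The germ cell markers summed to 8302 and 8479 CPM and then to 12680 and 12770 CPM, mesenchyme markers to 566 and 538 CPM and then to 406 and 408 CPM, and their part was not tested. Among the called members the largest rises were those of Uqcrc1, a core protein of complex III (1.26 ± 0.23), Sdhc (0.90 ± 0.25), Ndufv1, which binds NADH (0.76 ± 0.17), and Sdha (0.71 ± 0.14). Among the called members the largest falls were those of Cox8a (-0.99 ± 0.21), the ATP synthase subunit Atp5h (-0.92 ± 0.21), the Rieske protein Uqcrfs1 (-0.89 ± 0.20) and Ndufaf4 (-0.80 ± 0.19). Without 1 library the count was between 0 and 6: 0 without the shallower E12.5 library, 1 without the deeper E14.5 library, and 6 without either of the other two.

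At E14.5 many respiratory chain transcripts were lower in Tet1-WT males than in females, and a few, among them Cox8a, Cox7b and Atp5b, were higher. Of the 103 members 40 were called lower in males (38.8%) and 9 higher (8.74%), against 14.1% and 14% of all genes. The median log2 difference was -0.26 over the members and -0.005 over all genes. Nuclear members had a median of -0.40 and the 12 mitochondrially encoded members one of 0.16. Called lower in males were 21 of 36 complex I subunits, 2 of 4 of complex II, 4 of 8 of complex III, 6 of 18 of complex IV and 6 of 17 of complex V, and 1 assembly factor. The female libraries here are those of the E12.5 to E14.5 step above, so the values are given side by side and the lists are not set against each other. Markers of the supporting cells of the gonad summed to 21.9 and 24.8 CPM in the male libraries and to 9.31 and 4.66 CPM in the female ones, and mesenchyme markers to 322 and 345 CPM against 159 and 150 CPM. Germ cell markers summed to 12660 and 13190 CPM in the males and to 9032 and 8447 CPM in the females. Their part in these counts was not tested.

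Ndufa1 was at 54.4 and 32.7 CPM in males and at 417 and 357 CPM in females, 8.90-fold lower in males (log2 difference -3.15 ± 0.28, adjusted p = 1.32e-06, edgeR's quasi-likelihood test). Atp5f1 was at 544 and 318 CPM in males and at 1963 and 1871 CPM in females (log2 difference -2.15 ± 0.22, adjusted p = 3.84e-06). In both genes each male library lay below each female library. Ndufv2 was lower in males by 1.76 ± 0.18 and Uqcrc2 by 1.54 ± 0.18 on the log2 scale. Cox7a1 was at 19.6 and 18.1 CPM in males and at 52.1 and 57.4 CPM in females (log2 difference -1.54 ± 0.27, adjusted p = 0.000538). Cox4i2, an isoform of complex IV subunit IV used under low oxygen, had no counts in the 2 male libraries and was at 2.7 and 1.8 CPM in the female ones. Taking 3 counts per male library as a floor, it was at least 15.0-fold higher in females, and its call was lost in 3 of 4 fits that left out a library.

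Members called higher in Tet1-WT males were led by Cox8a, at 138 and 109 CPM in males and 27.1 and 40.7 CPM in females (log2 difference 1.87 ± 0.21, adjusted p = 1.32e-05), and Cox7b, at 154 and 152 CPM against 38.1 and 66.0 CPM (1.56 ± 0.20, adjusted p = 3.79e-05). Atp5b, the catalytic beta subunit of the ATP synthase, was at 1576 and 1534 CPM in males and at 661 and 758 CPM in females (1.13 ± 0.18, adjusted p = 0.000285). Its partner in the catalytic head, Atp5a1, was higher by 0.59 ± 0.17 and the c-ring gene Atp5g1 by 0.82 ± 0.14. Within the ATP synthase the catalytic head and the stalk subunit Atp5f1 had opposite signs. Ndufaf4 was higher by 1.05 ± 0.20. mt-Atp6 was the 1 mitochondrially encoded member called, at 794 and 786 CPM in males and 514 and 478 CPM in females (0.67 ± 0.19, adjusted p = 0.0157), and it and Atp5a1 lost their calls in all 4 fits with a library left out. Over all members the count fell from 49 to 27 without replicate 1 of the females and to 29 without replicate 2 of the males, and it was 38 without either of the others. Lower calls made up 21 to 32 of these counts.

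**Figure D4:**
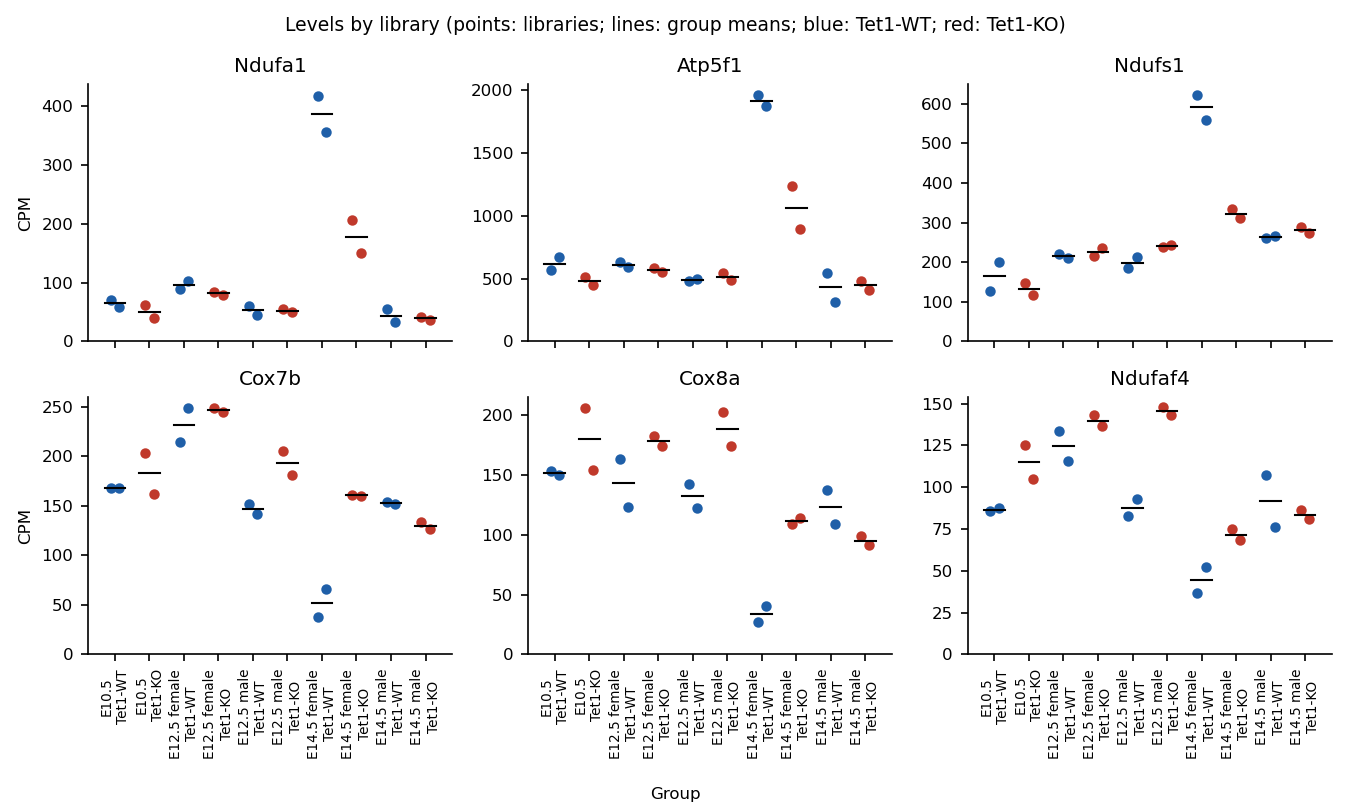
Levels in CPM (vertical axes, each starting at 0) of 6 members in each library of the Tet1 cross, by group on the horizontal axis; points are libraries, lines group means, blue Tet1-WT and red Tet1-KO. Ndufa1, Atp5f1 and Ndufs1 peak in the E14.5 Tet1-WT females (Ndufa1 at 417 and 357 CPM), where Cox7b, Cox8a and Ndufaf4 have their lowest values (Cox7b at 38.1 and 66.0 CPM); the E14.5 Tet1-KO females lie between these libraries and the other groups in Ndufa1 and Atp5f1.

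The Tet1-KO libraries gave a comparison of the sexes at E14.5 that shares no library with the Tet1-WT one. There 33 members were called lower in males (32.0%) and 7 higher (6.80%), against 7.43% and 11.6% of all genes. The sum of the germ cell markers was 12680 and 12770 CPM in the males and 7163 and 7545 CPM in the females, and that of supporting cell markers 47.2 and 31.1 CPM against 9.17 and 6.16 CPM. Their part was not tested. Of the 40 members called lower in Tet1-WT males 39 had a fitted difference below 0 in Tet1-KO and 28 were called lower (70.0% of the 40 and 84.8% of the 33). Of the 9 called higher 7 had a fitted difference above 0 and 4 were called higher. The overlap of calls over all genes was not counted, so these shares have no background beside them. Ndufa1 was at 41.5 and 37.0 CPM in Tet1-KO males and at 206 and 150 CPM in Tet1-KO females (log2 difference -2.18 ± 0.27, adjusted p = 6.6e-05). Atp5f1 was lower in males by 1.26 ± 0.21 and Cox7a1 by 1.54 ± 0.27, and neither gene's groups overlapped. Atp5a1 was higher in Tet1-KO males, at 988 and 1054 CPM against 439 and 586 CPM (0.99 ± 0.18, adjusted p = 0.00109), as were Sdha (0.79 ± 0.14), Atp5b (0.62 ± 0.18), mt-Atp6 (0.88 ± 0.19) and mt-Nd1 (0.59 ± 0.17). Atp5b and mt-Nd1 lost their calls in 3 of 4 fits with a library left out. Ndufa4l2 was lower in Tet1-KO males, at 1.5 and 3.8 CPM against 12.9 and 14.4 CPM (-2.36 ± 0.69, adjusted p = 0.0251). Cox8a and Cox7b, which had the largest male excess among the called members in Tet1-WT, differed by -0.23 ± 0.21 and -0.31 ± 0.20 in Tet1-KO (adjusted p = 0.477 and 0.3). The count fell from 40 to 13 without the deeper male library, to 21 without the shallower male library and to 18 without the shallower female library, and was 36 without the deeper female library.

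At E12.5 the number of members called between the sexes depended on the method. In Tet1-WT Ndufb11, an accessory subunit of complex I, was called, and no other member, at 174 and 158 CPM in males and 266 and 317 CPM in females (log2 difference -0.81 ± 0.17, adjusted p = 0.0467), against 0.575% of all genes called in either direction. DESeq2 called 9 members in Tet1-WT and the fit with no filter on low counts 5. With DESeq2's size factors in edgeR, or with a replicate block, none was called, and the adjusted p of Ndufb11 was 0.0521 and 0.0533. Its call was also lost in 3 of 4 fits with a library left out, and without replicate 1 of the females 10 members were called (8 higher and 2 lower in males). Without replicate 2 of the females, or without either male library, none was called. In Tet1-KO no member was called by edgeR's quasi-likelihood test, against 0.398% of all genes, and DESeq2 called 1. There 6 of the 103 members had an unadjusted p under 0.05, as had 1454 of all 17567 genes. Ndufb11 was at 200 and 184 CPM in Tet1-KO males and at 299 and 298 CPM in Tet1-KO females (-0.64 ± 0.17, adjusted p = 0.164). The members on the X chromosome are Ndufa1, Ndufb11 and Cox7b. At E14.5 Ndufb11 was lower in males by 0.80 ± 0.17 in Tet1-WT and 0.75 ± 0.17 in Tet1-KO, whereas Cox7b was higher in Tet1-WT males. Over the 725 X-linked genes tested the median log2 difference of Tet1-WT males from females was -0.28 at E12.5 and -0.62 at E14.5, while that of the 16058 autosomal genes was 0.00 at both ages.

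Loss of Tet1, an enzyme that oxidises 5-methylcytosine in DNA, was compared with Tet1-WT in each group. In E14.5 females 3 members were called higher and 5 lower in Tet1-KO, against 3.36% and 3.29% of all genes, and DESeq2 called 15. The median was -0.14 over the members and -0.03 over all genes. These are the Tet1-WT female libraries used above for stage and sex, so a value that was extreme in them enters all 3 comparisons. Cox8a was at 109 and 114 CPM in Tet1-KO and at 27.1 and 40.7 CPM in Tet1-WT (log2 difference 1.72 ± 0.21, adjusted p = 0.0015, edgeR's quasi-likelihood test). Cox7b was at 161 and 160 CPM against 38.1 and 66.0 CPM (1.63 ± 0.20, adjusted p = 0.0015). In each gene both Tet1-KO libraries lay above both Tet1-WT libraries, and these 2 calls held in all 4 fits with a library left out. Ndufaf4 was higher by 0.70 ± 0.20 (adjusted p = 0.0441), a call lost in 3 of those fits.

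Lower in Tet1-KO females were Ndufa1, at 206 and 150 CPM against 417 and 357 CPM (-1.12 ± 0.26, adjusted p = 0.0183), and Ndufs1, at 334 and 312 CPM against 624 and 560 CPM (-0.87 ± 0.18, adjusted p = 0.00952). Atp5f1 had a log2 difference of -0.85 ± 0.21, Ndufv2 of -0.78 ± 0.18 and Sdhb of -0.61 ± 0.15 (adjusted p = 0.0248, 0.0168 and 0.0257). In each of the 5 genes both Tet1-KO libraries lay below both Tet1-WT libraries. The genes were called from these same libraries, so this is no separate support. These calls were lost in at least 2 of the 4 fits with a library left out: no member was called lower without Tet1-WT replicate 1 or without the deeper Tet1-KO library, and in each of those fits 2 were called higher. Germ cell markers summed to 7163 and 7545 CPM in the Tet1-KO females and to 9032 and 8447 CPM in the Tet1-WT females, and mesenchyme markers to 195 and 251 CPM against 159 and 150 CPM. Their part in these differences was not tested.

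**Figure D5:**
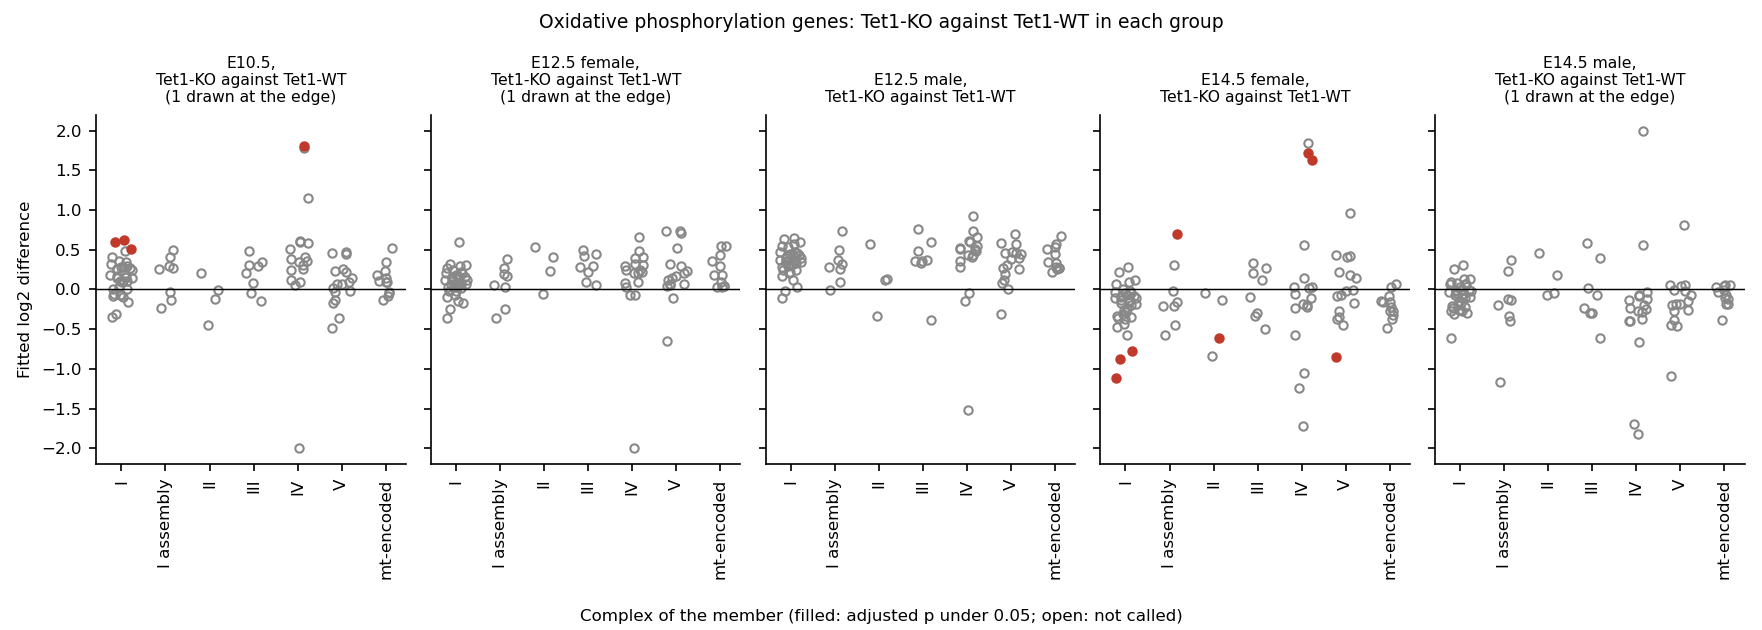
Fitted log2 differences of Tet1-KO from Tet1-WT (vertical axis) for the 103 tested members in each of the 5 stage and sex groups, by complex on the horizontal axis with the mitochondrially encoded members last; each point is a gene, filled red where called and open where not. Called members appear at E10.5 (4, all higher) and in E14.5 females (3 higher and 5 lower), and in E12.5 males 94 of the 103 points lie above 0 with none called.

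In E14.5 males no member was called by edgeR's quasi-likelihood test, against 0.102% of all genes, and DESeq2 called 3. Unadjusted p-values under 0.05 belonged to 11 of the 103 members and to 1815 of all 17567 genes. The smallest p belonged to Atp5a1, at 988 and 1054 CPM in Tet1-KO and 575 and 586 CPM in Tet1-WT (0.81 ± 0.18, adjusted p = 0.0976), and to Atp5g1, at 449 and 457 CPM against 643 and 596 CPM (-0.45 ± 0.13, adjusted p = 0.209). The difference itself was tested by subtracting the Tet1-KO effect of females from that of males, and 2 members were called, both lower, against 0.951% of all genes higher and 0.478% lower. They were Cox8a, with -2.10 ± 0.30 (adjusted p = 0.00748), and Cox7b, with -1.87 ± 0.28 (adjusted p = 0.00863). In males Cox8a was at 98.7 and 91.2 CPM in Tet1-KO and 138 and 109 CPM in Tet1-WT, and Cox7b at 133 and 126 CPM against 154 and 152 CPM. Without 1 of the 8 libraries 2 or 3 members were called, by DESeq2 8 and with no filter on low counts 5. Ndufs1 had a difference of 0.97 ± 0.25 between the sexes in this test (adjusted p = 0.0641) and Ndufa1 one of 0.97 ± 0.37 (adjusted p = 0.199).

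In E12.5 males most members had higher fitted values in Tet1-KO, and none was called. Of the 103 members 94 had a fitted difference above 0, the median was 0.36 over the members and 0.00 over all genes, and 47 members had an unadjusted p under 0.05, as had 2562 of all 17567 genes. DESeq2 called 7 members and 1.06% of all genes were called by edgeR. The smallest p belonged to Ndufs6, a complex I subunit, at 209 ± 8.31 CPM in Tet1-KO and 134 ± 7.70 CPM in Tet1-WT (SD, n = 2, log2 difference 0.64 ± 0.16, adjusted p = 0.0662), and to Ndufaf4 (0.73 ± 0.19, adjusted p = 0.0849). The mesenchyme markers summed to 566 and 538 CPM in these Tet1-KO libraries and to 2385 and 1619 CPM in the Tet1-WT libraries. Germ cell markers summed to 8302 and 8479 CPM against 5880 and 7129 CPM. Whether the small differences follow from this makeup was not tested.

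In E12.5 females no member was called by edgeR, against 1.29% of all genes, and DESeq2 called 3. An unadjusted p under 0.05 was found for 10 of the 103 members and for 2270 of all 17567 genes. The smallest p belonged to Atp5a1 (0.71 ± 0.17, adjusted p = 0.0614) and Atp5d (0.74 ± 0.18, adjusted p = 0.0637). Without Tet1-WT replicate 1, which leaves the library low in mitochondrial transcripts as the only Tet1-WT sample, 18 members were called, all higher in Tet1-KO; without replicate 2 none was called. Mesenchyme markers summed to 332 and 362 CPM in Tet1-KO and to 1131 and 1449 CPM in Tet1-WT.

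At E10.5, 4 members were called higher in the libraries labelled Tet1-KO and none lower, against 4.1% and 4.7% of all genes, and DESeq2 called 7. Cox7a1 was at 21.1 and 10.1 CPM in these and at 4.1 and 4.9 CPM in the libraries labelled Tet1-WT (1.80 ± 0.28, adjusted p = 0.00219, edgeR's quasi-likelihood test), and of the 4 it alone passed the test with any library left out. The complex I subunits Ndufs6, Ndufa11 and Ndufs7 were higher by 0.63 ± 0.16, 0.59 ± 0.15 and 0.51 ± 0.15, each a call lost in 3 of 4 such fits. Without replicate 2 of the libraries labelled Tet1-KO 16 members were called, and without replicate 1 of that label 1. In these Tet1-KO libraries mesenchyme markers summed to 771 and 1371 CPM and germ cell markers to 8063 and 5310 CPM, against the Tet1-WT sums given above. The part of this makeup in the differences was not tested.

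Averaged over the 5 groups with equal weight, 10 members were called higher in Tet1-KO and 1 lower, against 6.9% and 7.02% of all genes. Cox7a1 led (0.86 ± 0.12, adjusted p = 0.000345), followed by Cox8a (0.48 ± 0.09), Cox7b (0.40 ± 0.09) and Ndufaf4 (0.38 ± 0.09), and Ndufa1 was lower (-0.37 ± 0.12, adjusted p = 0.0427), a call lost in 15 of the 20 fits with 1 library left out. In E14.5 females the means were 111.5 CPM in Tet1-KO and 33.92 CPM in Tet1-WT for Cox8a and 160.4 against 52.07 CPM for Cox7b. In E14.5 males they were 94.97 against 123.5 CPM and 129.6 against 152.8 CPM, so the averages join opposite directions. Ndufaf4 too had a lower mean in Tet1-KO in those males, at 83.65 against 91.71 CPM. At E10.5 and E12.5 all of these genes had higher means in Tet1-KO. Cox7a1 was higher in both Tet1-KO libraries than in both Tet1-WT libraries of every group, although within single groups it was called at E10.5 only. In E12.5 males it stood at 39.4 and 38.8 CPM against 21.3 and 19.9 CPM (0.92 ± 0.27, adjusted p = 0.125). These 4 higher genes passed the test also without any 1 of the 20 libraries. The count ranged from 7 to 25 over these fits, with 25 without E10.5 Tet1-KO replicate 2 or E12.5 Tet1-WT female replicate 1 and 7 without E14.5 Tet1-WT female replicate 1 or the shallower Tet1-KO male library of E12.5 or of E14.5.

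Among the isoform sets, the widely expressed form carried most of the signal in every group. Cox4i1, the common form of complex IV subunit IV, was at 528 to 1081 CPM and Cox4i2 at 3.2 CPM or less. Cox7a2 ranged from 231 to 496 CPM, Cox7a2l, which joins complexes III and IV, from 88.6 to 203 CPM, and Cox7a1 reached 83.4 CPM in a Tet1-KO E14.5 female library. Cox6a1 ranged from 130 to 377 CPM, with Cox6a2 at 4 counts or fewer, and Cox6b1 from 166 to 299 CPM beside up to 107 CPM of Cox6b2. Cox7b2, a testis form of Cox7b, was at 17.3 CPM or less and was not called in any comparison shown here. At E14.5 it was at 8.5 and 9.9 CPM in Tet1-WT females, whose Cox7b was low, and at 9.9 and 17.3 CPM in Tet1-WT males (0.57 ± 0.90, adjusted p = 0.691). Cox8c was highest in the Tet1-WT E14.5 females, at 9.9 and 7.3 CPM, where Cox8a was lowest, with a difference from E12.5 of 2.76 ± 1.10 (adjusted p = 0.0792). The c-ring genes Atp5g1, Atp5g2 and Atp5g3 encode the same mature protein; Atp5g1 fell in Tet1-WT females from 466 and 495 to 328 and 375 CPM (-0.45 ± 0.13, adjusted p = 0.0208), while Atp5g2 went from 474 and 267 to 578 and 575 CPM and was called higher, a call lost in 3 of 4 fits with a library left out. The Atp5g1 call was lost in 2 of them. Ndufa4 ranged from 211 to 389 CPM.

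Genes that serve the same machinery were followed in 4 lists. The first list holds assembly factors, electron carriers and Cyc1. Of its 36 tested genes 11 were called lower and 4 higher in E14.5 Tet1-WT males than in females, with a median log2 difference of -0.24. Ecsit, which helps assemble complex I, was at 37.5 ± 5.52 CPM in males and 183 ± 11 CPM in females (SD, n = 2), a log2 difference of -2.28 ± 0.27. Atpaf2, an assembly factor of the ATP synthase, was lower by 1.84 ± 0.24 and Etfa, which feeds electrons from fatty acid oxidation, by 1.20 ± 0.17. Of 27 genes that copy, transcribe or process mitochondrial DNA and RNA 8 were called higher in males and 2 lower, with a median of 0.37. Rexo2, a nuclease of small RNAs, was at 182 ± 27.8 CPM in males and 45.3 ± 0.70 CPM in females (SD, n = 2, log2 difference 2.01 ± 0.19), Pnpt1 was higher by 1.82 ± 0.28 and Hsd17b10, part of mitochondrial RNase P, was lower by 1.45 ± 0.18.

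Of the 15 regulators of mitochondrial biogenesis 2 were called higher and 2 lower in males, with a median of -0.17. Pprc1, a coactivator of NRF1, was at 220 ± 28.2 CPM in males and 61.7 ± 15.8 CPM in females (1.84 ± 0.21), and Gabpa, the DNA-binding subunit of GABP, was lower by 0.94 ± 0.26. Of 20 tricarboxylic acid cycle genes 5 were called in each direction, with a median of 0.05. Citrate synthase (Cs) was at 259 ± 14.9 CPM in males and 694 ± 30.4 CPM in females (-1.42 ± 0.15) and malate dehydrogenase (Mdh2) at 1516 ± 66.6 against 565 ± 115 CPM (1.42 ± 0.17), so neighbouring steps of the cycle differed in opposite directions. Each gene named from the 4 lists was called in this comparison. The background in this comparison is the same as for the members, 14% of all genes higher and 14.1% lower.

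The 2 MF1 cross libraries were compared with the E10.5 libraries labelled Tet1-WT in a separate fit of 15500 genes, since they were deposited as a table of their own. No member was called by edgeR's quasi-likelihood test, against 0.606% of all genes, and DESeq2 called 7. Without adjustment 15 of 102 members had a p under 0.05, as had 3340 of all 15500 genes. The smallest p belonged to Ndufs6, at 273 and 381 CPM in the MF1 cross and 136 and 118 CPM in Tet1-WT (1.36 ± 0.34, adjusted p = 0.13), and to Cox4i2, with 0 and 1 counts in the MF1 cross and at 3.3 and 1.6 CPM in Tet1-WT (adjusted p = 0.148). The MF1 libraries differed from each other in the mitochondrially encoded members, which took 4.38% of the counts in replicate 1 and 1.54% in replicate 2. The count of called members depended on which MF1 library was kept. Such fits had 1 MF1 library, and the share of all genes called in them is not given here. Cross, RNA kit, number of cells, depth and table differ together between these groups and cannot be told apart. The labels give 600 to 1000 cells for the MF1 cross and 1000 to 8000 for the Tet1 cross.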

How the data were processed

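RNA was sequenced from 22 pools of sorted mouse PGCs, in 11 groups of 2. The values are read counts per gene, which the authors deposited in 1 table for the Tet1 cross and 1 for the MF1 cross, and every count column was used. The submitters' processing notes name Trimmomatic, TopHat2 2.0.2, Bowtie 0.12.8, HTSeq 0.5.3p9 and the mm9 build, and the strand setting is not given in the sources used here. Cells were amplified with SMARTer chemistry, per the labels' protocols, so a count is a read and not a molecule, and intervals and floors cover counting error only. The 8 Tet1-KO columns of E12.5 and E14.5 carry no replicate number and are named by their depth.

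Counts were fitted with edgeR 4.0.16 (R 4.3.3, limma 3.58.1) by its robust quasi-likelihood test, with TMM scaling, 1 coefficient per group, and a filter on low counts (minimum 10, total 15), which left 17567 genes over 20 libraries with 10 residual degrees of freedom. The common biological coefficient of variation was 0.46. The MF1 cross was fitted with the E10.5 Tet1-WT libraries alone (15500 genes, 2 residual degrees of freedom, coefficient 0.784). Fold changes used a prior count of 0.125, and p-values were adjusted by Benjamini-Hochberg over all genes tested in a comparison, for each of 20 comparisons. CPM rests on TMM-scaled totals, and errors of log2 differences are SEs from the fit. Alternatives were DESeq2 1.42.0, its size factors in edgeR, scaling without mitochondrially encoded genes, no filter, a replicate block and leaving out each library. The procedure was also run on simulated counts, in which the groups differed only by changes set in E14.5 Tet1-KO females. Real groups differ more widely, and the outcome of that run is not given here. Deviations of same-numbered libraries over all genes tested correlated between -0.05 and 0.06. This shows no pairing by number but cannot exclude shared litters or a shared preparation.

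Genes were named by a rule: the mitochondrially encoded members, complex II, the isoform sets, up to 4 called members per direction with the largest difference and a mean of at least 5 CPM in the higher group or, where none was called, the 2 with the smallest p, and up to 3 genes of each pathway list. Other members named were chosen after their values were seen. The members, lists and comparisons were chosen with earlier results of these data known. Of the listed genes, Fastkd4, Peo1, Prorp, Pc and Emr1 matched no row. Over the libraries of the Tet1 cross, marker sums were 4.66 to 67.7 CPM for supporting cells, 8.21 to 1855 CPM for erythroid cells and 61.4 to 443.7 CPM for endothelial cells and macrophages. Tables were handled with Python 3.11.15 and pandas 2.3.3, and plots drawn with matplotlib 3.10.9.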

Additional observations from a re-analysis of the deposited data

Results flagged for a closer look

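The Tet1-KO effect differed between the sexes at E14.5 in Cox8a and Cox7b, by a test of the difference itself with edgeR's quasi-likelihood model. The effect in males minus that in females was -2.10 on the log2 scale for Cox8a and -1.87 for Cox7b. Both genes were higher in Tet1-KO than in Tet1-WT in females, whereas in males both Tet1-KO libraries lay below both Tet1-WT libraries in each gene. The 2 calls were kept in each of the 8 fits that left out 1 of the 8 libraries.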

How the results depend on the processing

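The numbers of called members depended on the tool and on single libraries. DESeq2 called 7 members for Tet1-KO against Tet1-WT at E10.5, 3 and 15 in females of E12.5 and E14.5, 7 and 3 in males of those ages and 8 for the difference between the sexes at E14.5. In Tet1-WT it called 11 for E12.5 males against E10.5, 17 for males from E12.5 to E14.5 and 9 between the sexes at E12.5. In Tet1-KO it called 16 for females and 28 for males from E12.5 to E14.5, 8 for E12.5 males against E10.5 and 1 between the sexes at E12.5, and in the MF1 comparison 7. With no filter on low counts Tet1-KO against Tet1-WT gave 6 in E12.5 females, 9 in E12.5 males, 1 in E14.5 males and 5 for the difference between the sexes at E14.5. No filter also gave 5 between the Tet1-WT sexes at E12.5, 9 for Tet1-KO males from E10.5 to E12.5 and 5 in the MF1 comparison. With DESeq2's size factors the Tet1-WT sexes at E12.5 gave 0. The other counts under these settings were within 1.5 times the values reported, and no setting reversed a direction. The cause of the changed counts was not tested, and the share of all genes called under these settings is not given here.

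With 1 library left out, the counts ranged as follows. For Tet1-KO against Tet1-WT they were 1 to 16 at E10.5, 0 to 18 and 2 to 8 in females of E12.5 and E14.5, 0 in males of both ages, 7 to 25 for the average and 2 to 3 for the difference between the sexes. In Tet1-WT they were 8 to 22 and 25 to 55 for the female steps to E12.5 and E14.5, 2 to 4 and 1 to 4 for the male steps, 0 to 10 between the sexes at E12.5 and 27 to 38 at E14.5. In Tet1-KO they were 2 to 20 and 1 to 7 for the female steps, 2 to 17 and 0 to 6 for the male steps, 0 between the sexes at E12.5 and 13 to 36 at E14.5. In the MF1 comparison they were 0 to 77. A group left with 1 library is assumed to vary like the others. The share of all genes called in these fits is not given here, so the ranges have no background beside them. Of the values of single named genes, 373 kept their direction and side of the threshold under the other settings, 13 passed the threshold newly and 10 lost it. With a library left out 312 kept them, 130 lost their call and 6 gained one.

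A replicate block was fitted for the 8 comparisons whose columns carry numbers. It gave 0 called members between the Tet1-WT sexes at E12.5. It called 48 members for the E12.5 to E14.5 step in Tet1-WT females, 44 of them shared with the 44 called without it, and 51 between the Tet1-WT sexes at E14.5, 48 of them shared with the 49. The correlations of same-numbered libraries showed no pairing by these numbers, and they cannot exclude one. No block could be fitted for the comparisons with E12.5 or E14.5 Tet1-KO libraries, whose columns carry no numbers. Depth limits the muscle isoforms Cox8b and Cox6a2, with at most 4 counts in any library, for which no difference was detectable.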
